A study of Mus musculus with 8 samples.

Results

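The genes described here are the collagens and a set of other genes of the extracellular matrix, measured by microarray in mouse liver. They were chosen by name: every probe whose gene symbol on the array is a collagen chain (Col, a number, a, a number), and every probe of Lum, Dcn, Bgn, Fmod, Lox, Loxl1, Loxl2, Fn1, Fbn1, Eln, Timp1, Timp2, Timp3, Mmp2, Mmp14 or Sparc. This gave 76 probes of 51 genes, 36 of them collagen genes and 15 others, among the 25697 probes of the array. No probe carried the symbol Fn1, so fibronectin is not analysed here. A probe counted as above background where its detection p-value, the scanner's test of its brightness against negative control beads, was under 0.05 on at least 2 of the 8 arrays. That left 42 of the 76 probes, for 35 of the 51 genes, 22 collagen genes and 13 others, among 13760 probes above background in all.

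The livers came from adult male ob/ob mice, which by the strain's definition make no functional leptin of their own and are obese. All groups share that mutation. The mice received leptin at 0 ng/hr (the controls, 3 arrays, replicates 1 to 3), 12.5 ng/hr (2 arrays, replicates 4 and 5) or 25 ng/hr (3 arrays, replicates 6 to 8) for 12 days. The labels contradict themselves on the agent, which is given as untreated at 25 ng/hr and as leptin at 0 ng/hr. Groups follow the title, source and dose fields, which give 1 answer, and every direction given rests on the dose being right. The labels do not say that each array holds a separate animal, so the p-values measure the spread between these samples, which may be technical. All 8 arrays lie on 1 BeadChip in the order of dose, so chip position and dose cannot be told apart.

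Collagens are triple helices of 3 chains that are hydroxylated and assembled inside the cell, trimmed by proteinases outside it, and crosslinked by lysyl oxidases. Fibrillar collagens form the tough fibres of interstitial tissue, type IV collagen forms the sheet of basement membranes, and small leucine-rich proteoglycans such as decorin bind to fibres and limit their thickness. In the liver the main collagen producers are hepatic stellate cells and portal fibroblasts, which sit in the space between hepatocytes and sinusoids and around the portal tracts. Matrix metalloproteinases degrade the matrix, and the tissue inhibitors of metalloproteinases (Timp proteins) block them. Stellate cells that turn into contractile myofibroblasts are the textbook source of scar collagen in fibrosis, and leptin is described in the literature on rodents as a factor that acts on these cells.

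The sequences just upstream of the transcription start are shown for the member genes that passed a test and have an entry in the RefSeq promoter table (build GRCm38.p6), and for Col1a2, the partner chain of Col1a1 in type I collagen. Each is the last 120 bases before the start, read 5′ to 3′ on the gene's own strand. Capitals mark exact matches, on either strand, to 3 short promoter motifs. The first is TATAAA, known as the TATA box. The second is CCAAT, known by its letters. The third is GGGCGG, known as the GC box. Where matches overlap, as at the end of the Bgn sequence, the capitals run together.
Bgn, chrX:73483481-73483600, plus strand: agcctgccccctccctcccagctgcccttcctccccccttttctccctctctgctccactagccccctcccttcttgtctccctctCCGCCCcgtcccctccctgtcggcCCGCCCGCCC
Col1a2, chr6:4505498-4505617, plus strand: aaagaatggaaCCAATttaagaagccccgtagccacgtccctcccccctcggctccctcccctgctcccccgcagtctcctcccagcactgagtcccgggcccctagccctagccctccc
Col3a1, chr1:45311418-45311537, plus strand: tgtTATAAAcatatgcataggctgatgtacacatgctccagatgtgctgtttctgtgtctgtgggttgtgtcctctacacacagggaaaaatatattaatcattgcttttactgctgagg
Col6a1, chr10:76726045-76726164, minus strand: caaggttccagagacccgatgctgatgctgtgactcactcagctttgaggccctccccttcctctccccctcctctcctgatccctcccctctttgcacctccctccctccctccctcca
Sparc, chr11:55420081-55420200, minus strand: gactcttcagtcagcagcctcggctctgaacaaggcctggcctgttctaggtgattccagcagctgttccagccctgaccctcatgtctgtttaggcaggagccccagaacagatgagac
Col3a1 held TATAAA, Col1a2 held CCAAT, and Bgn held 3 matches to GGGCGG. Col6a1 and Sparc held none of the 3 motifs in this window, which says nothing about which factors bind there. The promoter table has an entry for 26 of the 35 genes, with 29 starts. TATAAA was in 1 of these 29 windows, against 6.34% of all 32851 promoters of the table. CCAAT was in 6, against 21.3% of all, and GGGCGG was in 16, against 26.5% of all. A match is a description of letters, not a binding site.

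Per array, 12094 to 12783 probes were above background (47.1% to 49.7%), and mean intensities before normalization were 456 to 532. Values are normalized log2 signals, on which a difference of 1 is a 2-fold difference in signal. The hepatocyte genes Apoa1, Apoa2, Ttr, Cps1 and Cyp2e1 were above background on every array, with 12.77 as their lowest log2 signal, while the array's probes for Alb, Fgb and Tat were on no array above background. Control replicate 1 stood apart. Its signal for Acta2, smooth muscle actin, was 12.10, against 7.30 to 9.05 on the other 7 arrays, on a probe that the array lists under an older name, 0610041G09Rik. Actg2, the gut smooth muscle actin, was 9.78 there and 4.33 to 5.72 elsewhere, Myh11, smooth muscle myosin, was 7.25 there and at most 4.91 elsewhere, and Adipoq, made by fat cells, was 6.77 there and at most 5.06 elsewhere. The 4 member probes that were above background on a single array (of Col17a1, Col4a6, Col7a1 and Lox) were all detected on control replicate 1. For the members whose differences from the controls are given below, the values without that array stand in 1 paragraph after the summary of the 42 probes, and those of Col6a1 beside its result.

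For 26 of the 42 matrix probes the mean signal was lowest in the livers given 25 ng/hr and highest in those given 12.5 ng/hr, an order that 16.9% of all probes had. The other 16 had another order, and in 6 of them the mean at 25 ng/hr was the highest. In the comparison of 25 with 12.5 ng/hr, 10 of the 42 probes fell and none rose. They belong to 8 genes: Col1a1 and Col3a1, fibrillar collagen chains; Col6a1, a chain of the beaded filaments that surround cells; Lum and Bgn, small proteoglycans; Loxl1, a crosslinking enzyme; Mmp2, a gelatinase; and Sparc, a collagen-binding matrix protein. Unless a fit without 1 array or another processing is named, adjusted p-values come from 1 limma fit of the 8 arrays. They carry Benjamini-Hochberg adjustment over all 13760 probes, and the threshold is 0.05. In that comparison 0.291% of all probes were called lower and 0.116% higher. In bulk liver, fewer matrix-producing cells and less RNA per cell cannot be told apart.

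Without control replicate 1, which enters only the shared estimate of the spread, 11 probes were called lower at 25 than at 12.5 ng/hr: Bgn was lost with an adjusted p of 0.0623, and Col1a2 and Timp2 were gained. Without either control replicate 2 or 3 the number was 7. It was 1, 2 and 3 without replicates 6, 7 and 8, and 0 without replicate 4 or replicate 5, each of which leaves a single array at 12.5 ng/hr whose spread is assumed to be like that of the other groups.

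At 25 relative to 0 ng/hr both Col6a1 probes fell, none of the other 40 member probes passed the threshold, and none rose. Over all probes 0.254% were called lower and 0.603% higher in this comparison. In the comparison of 12.5 with 0 ng/hr limma called none of the 42 probes and none of all probes (0% lower and 0% higher). Of the 42 probes, 12 had an unadjusted p under 0.05 there, all of them higher at 12.5 ng/hr, and the smallest adjusted p was 0.157, for Col3a1. Over all probes, 1535 had an unadjusted p under 0.05 in this comparison, 11.2% of those tested (6.17% higher and 4.99% lower). On the authors' scaled intensities, in place of the normalization used here, 1 member probe passed, that of Col1a1.

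**Figure D1:**
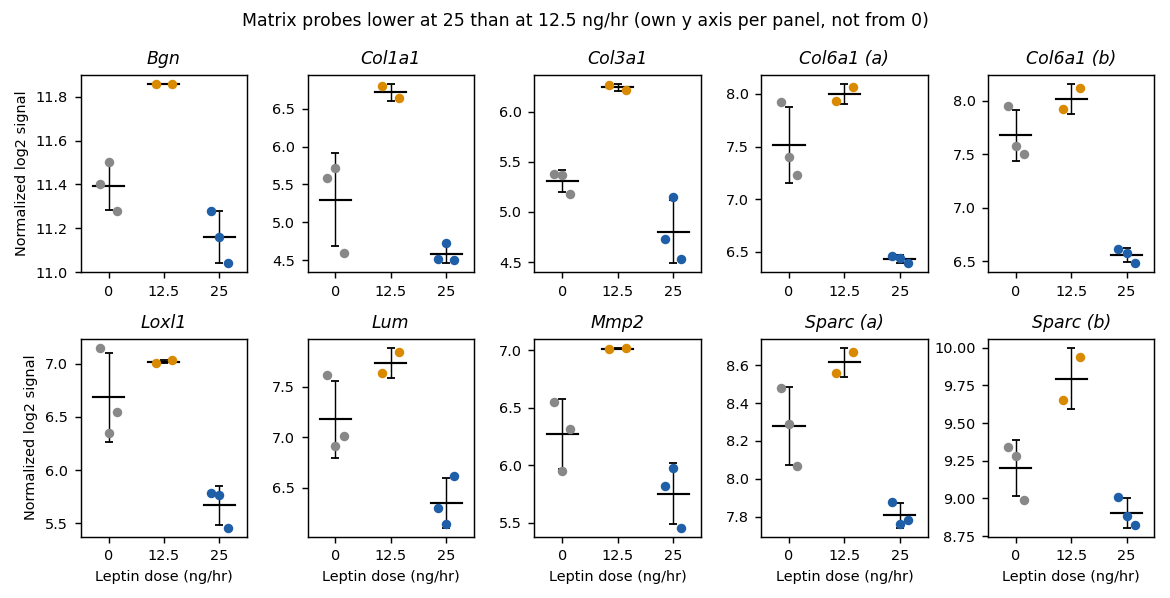
Normalized log2 signal (y axis, own scale per panel, not from 0) against leptin dose in ng/hr (x axis) for the 10 matrix probes called lower at 25 than at 12.5 ng/hr, with a and b for 2 probes of 1 gene. Points are arrays, bars are group means with SD (n = 3, 2 and 3), and in every panel the 3 points at 25 ng/hr lie below both points at 12.5 ng/hr.

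Col1a1, Col1a2 and Col3a1, the main fibrillar chains, lay near the background. Col1a1, the major chain of type I collagen, read 5.58, 5.72 and 4.59 in controls, 6.80 and 6.64 at 12.5 ng/hr, and 4.52, 4.73 and 4.50 at 25 ng/hr. The 12.5 ng/hr arrays were above all others, while control replicate 3 was as low as the 25 ng/hr arrays, so those 2 groups overlap. Col1a1 was above background on 2 of 3 control arrays, on both 12.5 ng/hr arrays and on no 25 ng/hr array. With the background correction used here it was at least 3.52-fold lower at 25 than at 12.5 ng/hr (adjusted p = 0.0219). That bound leaves out the spread between arrays. The size depends on the background correction: the fitted difference was -2.14, against -1.03 without background correction, -1.21 on the authors' scaled intensities and -1.27 with an offset of 50, folds of 2.04, 2.32 and 2.41 that all passed. At 12.5 against 0 ng/hr its log2 difference was 1.43 ± 0.29 (SE, adjusted p = 0.159), which did not pass.

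Col1a2, the second chain of type I collagen, read 5.18, 4.79 and 4.49 in controls, 5.52 and 5.50 at 12.5 ng/hr, and 4.55, 4.51 and 4.55 at 25 ng/hr. Only 1 control array and the 12.5 ng/hr arrays were above background. Its order of groups was that of Col1a1. With the same background correction it was at least 1.52-fold lower at 25 than at 12.5 ng/hr, but the adjusted p was 0.0672. Col3a1, the chain of type III collagen, which forms the fine reticular fibres of the liver, read 5.38, 5.37 and 5.18 in controls, 6.27 and 6.22 at 12.5 ng/hr, and 4.73, 5.15 and 4.53 at 25 ng/hr. The 3 groups did not overlap. Its signal fell by 1.45 ± 0.17 on the log2 scale at 25 relative to 12.5 ng/hr (SE, adjusted p = 0.0144), a 2.72-fold difference, with only 1 of the 25 ng/hr arrays above background. Under the same 3 alternatives the difference was -0.65, -0.78 and -0.82, folds of 1.57, 1.71 and 1.77 that all passed. At 12.5 against 0 ng/hr it differed by 0.93 ± 0.17 (adjusted p = 0.157), and at 25 against 0 ng/hr by -0.51 ± 0.15 (adjusted p = 0.148). A further Col3a1 probe, at intensities of 52.8 to 70.4, was above background on no array.

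Col5a1, a chain of type V collagen, which starts the assembly of type I fibres, was above background on all 8 arrays and showed the same order. It read 7.60, 7.68 and 7.07 in controls, 8.06 and 7.81 at 12.5 ng/hr, and 6.81, 7.14 and 6.58 at 25 ng/hr. The 12.5 ng/hr arrays were the highest, and the highest 25 ng/hr array reached above the lowest control. The log2 difference of 25 minus 12.5 ng/hr was -1.09 ± 0.21 (adjusted p = 0.0826), which did not pass. It passed under some alternatives, among them no background correction, the authors' scaled intensities and an offset of 50. It passed in no fit that left out 1 control or 25 ng/hr array. The other fibrillar chains above background were Col2a1, Col5a3, Col11a1, Col11a2 and Col27a1, whose differences between 25 and 12.5 ng/hr were -0.15 to 0.29. Of the 9 fibrillar probes above background, 2 were called lower at 25 than at 12.5 ng/hr, against 0.291% of all probes. The median difference of the 9 was -0.15. Of the 11 fibrillar genes on the array, Col5a2 and Col24a1 had no probe above background.

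Type VI collagen, whose filaments link cells to the fibrillar matrix, gave the clearest difference. The first Col6a1 probe read 7.92, 7.40 and 7.23 in controls, 7.93 and 8.07 at 12.5 ng/hr, and 6.46, 6.44 and 6.39 at 25 ng/hr. The second read 7.95, 7.58 and 7.50 in controls, 7.92 and 8.12 at 12.5 ng/hr, and 6.61, 6.58 and 6.48 at 25 ng/hr. On both probes all 3 arrays at 25 ng/hr were below all 5 others, and the spread within 25 ng/hr was small (SD 0.03 and 0.07, n = 3).

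At 25 relative to 0 ng/hr Col6a1 fell by 1.08 ± 0.16 on the first probe (SE, adjusted p = 0.0302) and by 1.12 ± 0.13 on the second (adjusted p = 0.0185), folds of 2.12 and 2.18. The folds were 1.67 and 1.72 without background correction and 1.79 and 1.84 on the authors' scaled intensities. With an offset of 50 they were 1.81 and 1.87, and all of these passed. Without control replicate 1, the highest control on both probes, the differences were -0.88 (adjusted p = 0.0349) and -0.99 (adjusted p = 0.026). Either probe lost this call in some fits that left out 1 array: none was called without replicate 3, 6 or 7, and 1 of the 2 without replicate 2, 4 or 5. At 25 relative to 12.5 ng/hr Col6a1 fell by 1.56 ± 0.18 (adjusted p = 0.0144) and by 1.46 ± 0.15 (adjusted p = 0.00749). Without background correction these differences were -1.11 and -1.05. At 12.5 against 0 ng/hr the differences were 0.48 and 0.34, and neither passed (adjusted p of 0.389 and 0.437). A further Col6a1 probe on the array was not above background.

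Col6a2, the second chain of type VI collagen, read 5.34, 5.12 and 4.96 in controls, 5.34 and 5.20 at 12.5 ng/hr, and 4.72, 4.98 and 4.90 at 25 ng/hr. The 25 ng/hr arrays were below both 12.5 ng/hr arrays but overlapped the controls, and the signals lie near the background, with 6 of 8 arrays above it. The difference of 25 minus 12.5 ng/hr was -0.40 ± 0.14 (adjusted p = 0.282). No probe on the array carried the symbol Col6a3, the third chain.

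Among basement membrane collagens, Col4a1 and Col4a2 went together. These genes encode the 2 chains of the most widespread type IV collagen and are transcribed in opposite directions from starts that lie 21 bases apart on chromosome 8 in the RefSeq table. Col4a1 read 8.57, 8.58 and 8.28 in controls, 8.67 and 8.83 at 12.5 ng/hr, and 7.77, 8.21 and 7.75 at 25 ng/hr. Col4a2 read 7.99, 8.18 and 7.89 in controls, 8.30 and 8.41 at 12.5 ng/hr, and 7.61, 7.74 and 7.43 at 25 ng/hr. For both, the 3 groups did not overlap, with 12.5 ng/hr highest and 25 ng/hr lowest.

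With the processing used here none of the type IV differences passed the threshold. At 25 minus 12.5 ng/hr they were -0.84 ± 0.17 for Col4a1 (SE, adjusted p = 0.09) and -0.77 ± 0.13 for Col4a2 (adjusted p = 0.0637). At 25 minus 0 ng/hr they were -0.57 ± 0.15 (adjusted p = 0.115) and -0.43 ± 0.12 (adjusted p = 0.131). Both genes passed at 25 minus 12.5 ng/hr without background correction, on the authors' scaled intensities and with an offset of 50. They also passed there with a trended robust prior, and Col4a2 for probes detected on all 8 arrays. At 25 minus 0 ng/hr Col4a1 passed with that prior. Neither gene passed in any fit that left out 1 control or 25 ng/hr array. Col18a1, which encodes the precursor of endostatin and is made by hepatocytes in the liver, was flat: its first probe read 13.17, 13.18 and 13.18 in controls, 13.13 and 13.12 at 12.5 ng/hr, and 13.10, 13.12 and 13.22 at 25 ng/hr. The 95% interval of its difference between 25 and 12.5 ng/hr ran from -0.21 to 0.24. The second Col18a1 probe, at 8.44 to 8.68, had an interval from -0.29 to 0.17.

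Col15a1, Col4a5 and Col4a6 were the other basement membrane chains above background, with differences of -0.19 to 0.01 between 25 and 12.5 ng/hr. Col4a3 and Col4a4, whose chains are textbook components of the kidney glomerulus, were not above background. Limma called 0 of the 7 basement membrane probes in each comparison. At an unadjusted p under 0.05, 2 were lower at 25 than at 12.5 ng/hr (Col4a1 and Col4a2) and 3 were lower at 25 than at 0 ng/hr. Over all 13760 probes, 12.8% had an unadjusted p under 0.05 at 25 against 12.5 ng/hr (6.96% lower and 5.84% higher) and 17.0% at 25 against 0 ng/hr (8.28% lower and 8.76% higher).

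The remaining collagens above background were Col9a1, Col12a1, Col14a1, Col16a1 and 2 probes of Col25a1, and limma called none of these 6 probes. At an unadjusted p under 0.05, 2 of them were lower at 25 than at 12.5 ng/hr, against 6.96% of all probes. Col16a1, a chain found on the surface of fibres, read 7.71, 7.30 and 6.70 in controls, 7.46 and 7.46 at 12.5 ng/hr, and 6.73, 6.48 and 6.54 at 25 ng/hr. Its controls spread over more than the other groups and overlapped both. The 25 minus 12.5 ng/hr difference was -0.88 ± 0.24 (adjusted p = 0.189).

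For Col9a1, a cartilage collagen, the 25 ng/hr arrays all lay above the controls. It read 5.33, 5.04 and 5.16 in livers given 25 ng/hr, against 4.84, 4.84 and 4.66 in controls (adjusted p = 0.152). Without control replicate 1 such a separation was seen for 1 of the 42 probes, against 14.9% of all probes. The Col9a1 probe lay near the background, at intensities of 66.2 to 82.2, and was above it on no control array. With the background correction used here the difference was at least 1.25-fold, a bound that leaves out the spread between arrays. Further Col9a1 probes were above background on no array. For the class of 6 probes the median differences were 0.04 at 25 minus 0 ng/hr and 0.03 at 25 minus 12.5 ng/hr. Of the 15 genes of this class on the array, 10 had no probe above background.

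**Figure D2:**
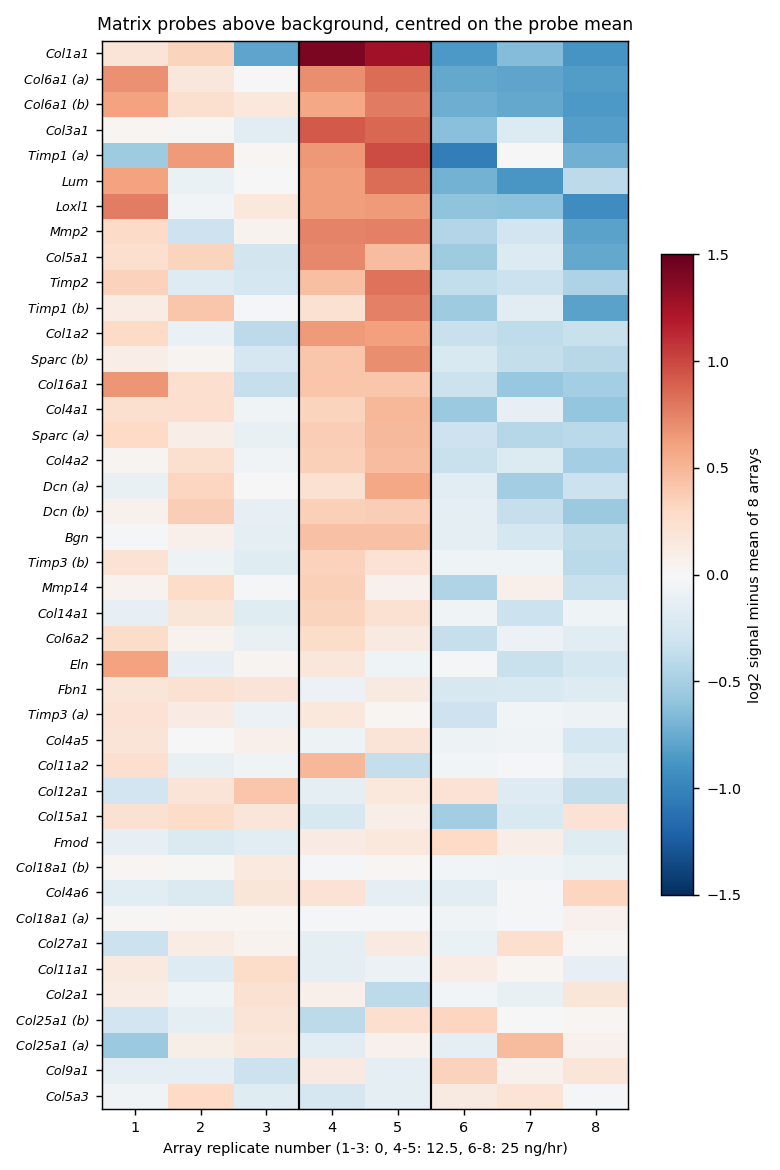
Log2 signal of each of the 42 matrix probes above background (rows, sorted by the difference between 25 and 12.5 ng/hr) on each array (columns, by replicate number in order of dose), centred on the probe's mean over 8 arrays, with a and b for 2 probes of 1 gene. Red is above and blue below the mean, the upper rows are red on replicates 4 and 5 and blue on 6 to 8, and the lowest rows show no such order.

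All 4 small leucine-rich proteoglycans of the list were above background. Lum, lumican, which spaces collagen fibres, read 7.61, 6.91 and 7.01 in controls, 7.63 and 7.84 at 12.5 ng/hr, and 6.30, 6.14 and 6.62 at 25 ng/hr. Its 3 groups did not overlap. At 25 relative to 12.5 ng/hr lumican fell by 1.38 ± 0.22 (SE, adjusted p = 0.0425), a 2.61-fold difference that was not called under 6 of 18 alternatives. Its fold was 1.92 without background correction, 2.14 on the authors' scaled intensities and 2.13 with an offset of 50, and all passed. At 25 against 0 ng/hr its difference was -0.83 ± 0.20 (adjusted p = 0.0896).

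Bgn, biglycan, which binds type I collagen and growth factors of the TGF-beta family, read 11.40, 11.50 and 11.28 in controls, 11.86 and 11.86 at 12.5 ng/hr, and 11.28, 11.16 and 11.04 at 25 ng/hr. The 12.5 ng/hr arrays were above all others, and the highest 25 ng/hr array was level with the lowest control. Its signal fell by 0.70 ± 0.12 at 25 relative to 12.5 ng/hr (adjusted p = 0.0476), a 1.63-fold difference close to the threshold that was not called under 12 of 18 alternatives.

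Dcn, decorin, had 2 probes. The first read 10.36, 10.80 and 10.47 in controls, 10.70 and 11.05 at 12.5 ng/hr, and 10.31, 9.95 and 10.15 at 25 ng/hr. The second read 12.65, 12.95 and 12.46 in controls, 12.94 and 12.95 at 12.5 ng/hr, and 12.45, 12.24 and 12.03 at 25 ng/hr. On both, the 25 ng/hr arrays were below all 5 others, though by no more than 0.05 for the nearest control. The 25 minus 12.5 ng/hr differences were -0.74 ± 0.17 (adjusted p = 0.133) and -0.71 ± 0.17 (adjusted p = 0.139), and neither passed. Fmod, fibromodulin, had differences of -0.07 at 25 minus 12.5 ng/hr and 0.24 at 25 minus 0 ng/hr.

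Of the elastic fibre and crosslinking genes, Loxl1 was called. Loxl1, a lysyl oxidase relative needed for elastic fibres, read 7.15, 6.35 and 6.55 in controls, 7.01 and 7.03 at 12.5 ng/hr, and 5.78, 5.77 and 5.46 at 25 ng/hr. Its 25 ng/hr arrays were below all others, and its controls spread over a range that held both 12.5 ng/hr arrays. Loxl1 fell by 1.35 ± 0.22 at 25 relative to 12.5 ng/hr (SE, adjusted p = 0.0435), a 2.55-fold difference that was not called under 7 of 18 alternatives. Its fold was 1.71 without background correction, 1.89 on the authors' scaled intensities and 1.93 with an offset of 50, and all passed. At 25 against 0 ng/hr the difference was -1.02 ± 0.19 (adjusted p = 0.0524), and it passed under 7 of the 10 other ways of processing but in 0 of the 8 fits that left out 1 array.

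Lox and Loxl2, the other crosslinking enzymes on the list, had no probe above background on 2 or more arrays. Fbn1, fibrillin-1, the scaffold of elastic fibres, read 6.05, 6.09 and 6.06 in controls, 5.78 and 6.0 at 12.5 ng/hr, and 5.63, 5.64 and 5.67 at 25 ng/hr, so it was lowest at 25 ng/hr with the 12.5 ng/hr arrays between. Its 25 minus 0 ng/hr difference was -0.42 ± 0.10 (adjusted p = 0.0837). Eln, elastin, was above background on 2 arrays only.

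Every probe of the proteinases, their inhibitors and Sparc on the array was above background, 9 probes of 6 genes. Mmp2, a gelatinase made by mesenchymal cells, read 6.55, 5.95 and 6.32 in controls, 7.01 and 7.02 at 12.5 ng/hr, and 5.82, 5.98 and 5.46 at 25 ng/hr. The 12.5 ng/hr arrays were above all others, and the 25 ng/hr arrays overlapped the controls at 1 array. Mmp2 fell by 1.26 ± 0.20 at 25 relative to 12.5 ng/hr (SE, adjusted p = 0.0416), a 2.40-fold difference that was not called under 6 of 18 alternatives. Its fold was 1.66 without background correction, 1.82 on the authors' scaled intensities and 1.85 with an offset of 50, and all passed. Mmp14, the membrane-bound proteinase that activates the Mmp2 precursor, read 9.10, 9.32 and 9.02 in controls, 9.41 and 9.11 at 12.5 ng/hr, and 8.60, 9.12 and 8.71 at 25 ng/hr. Those groups overlapped, and the 25 minus 12.5 ng/hr difference was -0.45 ± 0.18 (adjusted p = 0.329).

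Sparc, a secreted protein that binds collagen and is needed for orderly fibres, had 2 probes that both passed. The first read 8.48, 8.29 and 8.07 in controls, 8.56 and 8.67 at 12.5 ng/hr, and 7.88, 7.76 and 7.78 at 25 ng/hr. The second read 9.34, 9.28 and 8.99 in controls, 9.65 and 9.94 at 12.5 ng/hr, and 9.01, 8.88 and 8.82 at 25 ng/hr. The 12.5 ng/hr arrays were highest on both. The 3 groups did not overlap on the first, and on the second 1 array at 25 ng/hr was above the lowest control. Sparc fell by 0.81 ± 0.14 (adjusted p = 0.0476) and by 0.89 ± 0.15 (adjusted p = 0.0469) at 25 relative to 12.5 ng/hr. The call was lost under 8 of 17 alternatives for the first probe and 7 of 18 for the second.

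The inhibitors followed the same order without passing under the processing used here. Timp2, which both blocks Mmp2 and takes part in its activation, read 7.44, 6.90 and 6.83 in controls, 7.55 and 7.91 at 12.5 ng/hr, and 6.73, 6.77 and 6.63 at 25 ng/hr. Its groups did not overlap, and the 25 minus 12.5 ng/hr difference was -1.02 ± 0.19 (adjusted p = 0.0756). Timp2 passed under some alternatives, among them no background correction, the authors' scaled intensities and an offset of 50. Of the fits that left out 1 control or 25 ng/hr array, it passed only without control replicate 1. The 2 probes of Timp1, the inhibitor that is induced in fibrotic liver, differed by -1.41 ± 0.36 and -0.99 ± 0.22 (adjusted p of 0.161 and 0.123). Timp1 was near the background, with 1 array at 25 ng/hr above it on the first probe and 2 on the second.

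Timp3, an inhibitor that stays bound to the matrix, had a first probe at 5.22, 5.13 and 4.92 in controls, 5.16 and 5.04 at 12.5 ng/hr, and 4.69, 4.96 and 4.93 at 25 ng/hr. Its second probe read 9.08, 8.78 and 8.68 in controls, 9.20 and 9.08 at 12.5 ng/hr, and 8.80, 8.80 and 8.45 at 25 ng/hr. On both the 25 ng/hr arrays were below the 12.5 ng/hr arrays and overlapped the controls, with differences of -0.24 and -0.46 (adjusted p of 0.497 and 0.276).

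Across the 42 probes the median log2 difference was -0.46 at 25 minus 12.5 ng/hr, against 0.008 over all 13760 probes. It was -0.32 at 25 minus 0 ng/hr, against 0.002 over all, and 0.27 at 12.5 minus 0 ng/hr, against -0.002 over all. These 3 differences share arrays and are not independent of each other. Of the 42 probes, 33 were below 0 at 25 minus 12.5 ng/hr, 35 at 25 minus 0 ng/hr, and 32 were above 0 at 12.5 minus 0 ng/hr. The members were chosen by name, and these summaries carry no test.

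The arrays of 2 groups did not overlap, with 25 below 12.5 ng/hr, for 26 of the 42 probes, against 15.8% of all probes. The arrays at 25 ng/hr lay below all controls for 16, against 11.2% of all, and those at 12.5 ng/hr lay above all controls for 17, against 14.4% of all. Of the 24 probes above background on all 8 arrays, 18 had group means in the order 12.5, 0, 25 ng/hr from high to low, and their median differences were -0.75 at 25 minus 12.5, -0.41 at 25 minus 0 and 0.33 at 12.5 minus 0 ng/hr. The 18 probes above background on only some arrays had medians of -0.17, -0.22 and 0.04 in the same comparisons. For these probes the background limits how large a difference can appear.

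Without control replicate 1 the medians of the 42 probes were -0.23 at 25 minus 0 and 0.26 at 12.5 minus 0 ng/hr. The arrays at 25 ng/hr lay below the 2 remaining controls for 17 of the 42 probes, against 16.7% of all, and those at 12.5 ng/hr lay above them for 22, against 19.3% of all. At 25 minus 0 ng/hr Loxl1 differed by -0.78 (adjusted p = 0.0641), Lum by -0.61 (adjusted p = 0.162) and Fbn1 by -0.42 (adjusted p = 0.174). The collagens Col3a1, Col4a1 and Col4a2 differed by -0.47, -0.52 and -0.45 (adjusted p of 0.285, 0.235 and 0.228), Col9a1 by 0.42 (adjusted p = 0.241) and Fmod by 0.26. At 12.5 minus 0 ng/hr Col1a1 differed by 1.56 (adjusted p = 0.3), Col3a1 by 0.97 (adjusted p = 0.302), the 2 Col6a1 probes by 0.68 and 0.48 (adjusted p of 0.3 and 0.378) and Reln by 0.51 (adjusted p = 0.399). These differences kept the sign they had on all 8 arrays, and none of them passed.

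**Figure D3:**
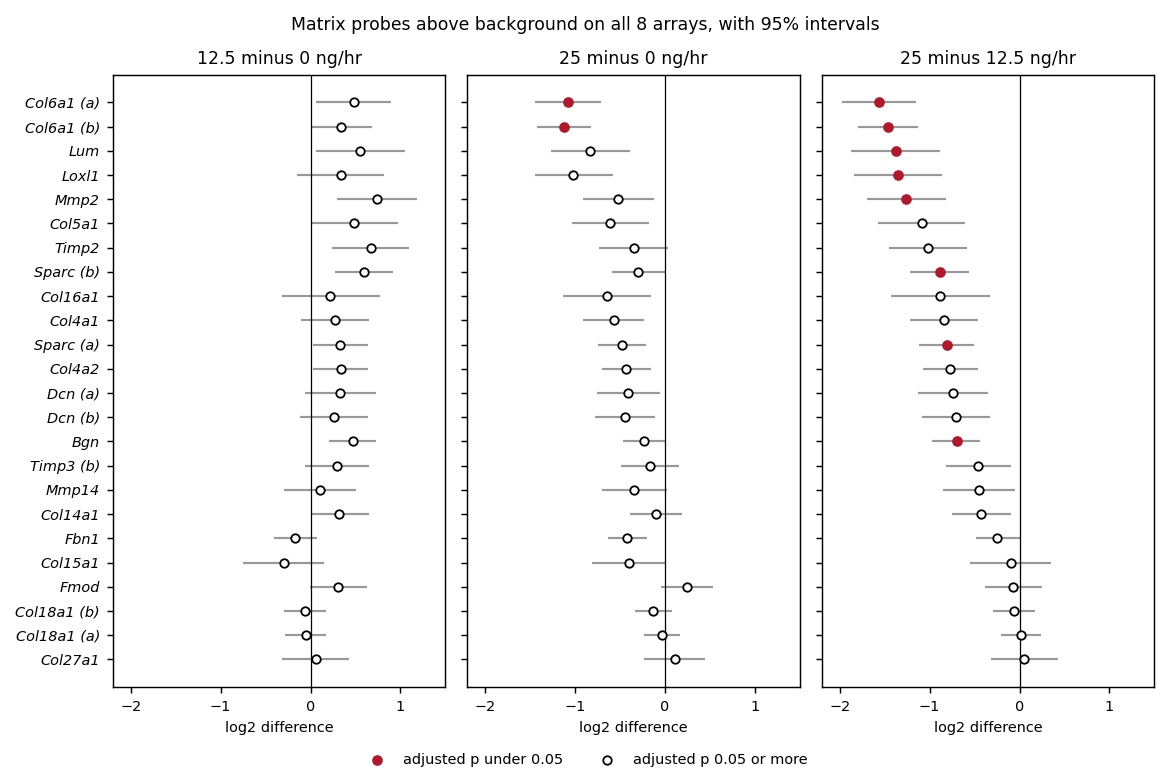
Log2 differences (x axes) with 95% intervals for the 24 matrix probes above background on all 8 arrays (rows), at 12.5 minus 0, 25 minus 0 and 25 minus 12.5 ng/hr, with a and b for 2 probes of 1 gene. Filled points have an adjusted p under 0.05: none in the first panel, both Col6a1 probes in the second, and 8 of the 10 called probes in the third, since those of Col1a1 and Col3a1 were not above background on all arrays.

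The medians of the 42 probes per array kept the groups apart. Centred on each probe's own mean, the median of the 42 probes was 0.13, 0.08 and -0.02 on the control arrays, 0.33 and 0.25 on the 12.5 ng/hr arrays, and -0.23, -0.20 and -0.34 on the 25 ng/hr arrays. The highest signal of a probe was on a 12.5 ng/hr array, replicate 4 or 5, for 10 and 14 of the 42. The lowest was on replicate 8 for 18 of them, against 7 and 6 for replicates 6 and 7. The number of the 42 probes above background was 36 on each control array and on each 12.5 ng/hr array, and 30, 34 and 31 on the 25 ng/hr arrays.

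The detection limit bears on the rest of the 76 probes. Of the 34 not above background, 30 were on no array and 4 on 1 array. The 16 genes without a probe above background were Col4a3, Col4a4, Col5a2, Col7a1, Col8a2, Col9a2, Col9a3, Col10a1, Col13a1, Col17a1, Col19a1, Col23a1, Col24a1, Col28a1, Lox and Loxl2. Just inside the threshold, with 2 arrays each, were Col4a5, Col11a1 and Eln. Just outside, with 1 array each, were the probes of Col17a1, Col4a6, Col7a1 and Lox, whose highest intensities were 76.4, 79.5, 82.3 and 78.5. The lowest intensity called above background on an array was 68.3 to 76. A gene below this limit was not detectable here, which does not show that it is absent.

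Other genes of the matrix pathway were described from 6 lists, each gene by its brightest probe. Of 17 measured genes that modify and process collagen, 2 fell at 25 relative to 12.5 ng/hr and 0 rose. Over all probes 0.291% were called lower and 0.116% higher in this comparison. Adamts2, the proteinase that removes the amino-terminal propeptide of fibrillar procollagens, read 7.98, 8.05 and 7.79 in controls, 8.91 and 8.71 at 12.5 ng/hr, and 7.69, 7.59 and 7.45 at 25 ng/hr. Its groups did not overlap, and it fell by 1.24 ± 0.13 (SE, adjusted p = 0.00763). The call was lost under 2 of 18 alternatives. Those left a single array at 12.5 ng/hr, and the differences there were -1.14 and -1.34. Fkbp10, a prolyl isomerase of collagen folding, was above background on no 25 ng/hr array. With the background correction used here it was at least 1.40-fold lower there than at 12.5 ng/hr, at an adjusted p on the threshold (0.05). Its fold was 1.23 without background correction, 1.27 on the authors' scaled intensities and 1.29 with an offset of 50, and none of these passed. Fkbp10 was not called under 15 of 17 alternatives. Pcolce, which speeds the removal of the other propeptide, differed by -0.87 (adjusted p = 0.128). The prolyl and lysyl hydroxylase genes P4ha1, P4ha2, P4hb, Plod1, Plod2 and Plod3 differed by -0.25 to 0.28 in this comparison. The list's median was -0.17.

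Of 19 other matrix glycoproteins and proteoglycans, 1 fell at 25 relative to 12.5 ng/hr, against 0.291% of all probes. That gene, Ctsk, cathepsin K, a collagen-cleaving protease, read 5.77, 6.04 and 5.75 in controls, 6.57 and 6.41 at 12.5 ng/hr, and 5.43, 5.15 and 5.37 at 25 ng/hr. Its groups did not overlap, and it fell by 1.17 ± 0.14 (adjusted p = 0.0144). The difference was -0.59 without background correction, -0.70 on the authors' scaled intensities and -0.74 with an offset of 50, and all passed. Its call was lost under 2 of 18 alternatives. Those left a single array at 12.5 ng/hr, and the differences there were -1.09 and -1.23. Thrombospondin 2 (Thbs2) differed by -0.91 (adjusted p = 0.162) and the list's median was -0.29. Limma called 0 of 17 genes of TGF-beta signalling, the main profibrotic pathway, in any comparison. At an unadjusted p under 0.05, 7 were lower at 25 than at 12.5 ng/hr, against 6.96% of all probes, and the list's median was -0.33. Tgfb1, the ligand, differed by -0.05, its receptor Tgfbr2 by -0.55, the latent-form binder Ltbp3 by -0.74, and the target Ccn2 by -0.38.

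Limma also called 0 of 10 laminins, nidogens and heparan sulfate proteoglycans of the basement membrane, with 3 lower at an unadjusted p under 0.05 (6.96% of all probes) and a median of -0.23 at 25 minus 12.5 ng/hr. Their largest difference was that of Nid1, nidogen-1, which links laminin to type IV collagen, at -0.78 (adjusted p = 0.179). It called 0 of 14 other metalloproteinases and inhibitors, with 3 lower at an unadjusted p under 0.05, and 0 of 12 collagen receptors and integrins, with 1 lower and 1 higher. Over all probes, 12.8% were under that p in this comparison, 6.96% lower and 5.84% higher. Mmp12 and Mmp13, the macrophage elastase and the interstitial collagenase of mice, varied widely within groups. Mmp13 ranged over 4.69 to 7.15 at 25 ng/hr, against 5.76 to 7.39 in controls.

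Markers of the cell types that make or surround the matrix were taken from 9 lists. Of the genes of hepatic stellate cells, 10 were measured. Lrat, the enzyme that stores retinol in stellate cells, read 6.33, 5.82 and 6.36 in controls, 7.24 and 6.77 at 12.5 ng/hr, and 7.38, 5.58 and 6.69 at 25 ng/hr, with overlap of all groups but 12.5 and 0 ng/hr. Reln, reelin, was at 11.12 and 10.99 at 12.5 ng/hr, against 10.25, 10.73 and 10.36 in controls (adjusted p = 0.251). Cygb, cytoglobin, a globin of quiescent stellate cells, differed by -0.85 at 25 minus 12.5 ng/hr (adjusted p = 0.199). Des, desmin, read 8.02, 6.31 and 6.18 in controls, 6.22 and 6.38 at 12.5 ng/hr, and 5.75, 6.50 and 6.05 at 25 ng/hr, with control replicate 1 the highest and the groups overlapping. Pdgfrb, the platelet-derived growth factor receptor of these cells, was not above background on 2 arrays. The summed linear level of the 10 genes was 3644 to 4980 in controls, 5356 to 5564 at 12.5 ng/hr and 3804 to 4425 at 25 ng/hr, so it was also highest at 12.5 ng/hr, and Gfap was on no array above background. The part of stellate cell number in the matrix differences was not tested.

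None of the 7 measured genes of myofibroblasts and smooth muscle was called by limma in any comparison, and at an unadjusted p under 0.05 1 was lower at 25 than at 12.5 ng/hr, against 6.96% of all probes. Acta2, the defining myofibroblast marker, read 12.10, 8.98 and 7.80 in controls, 8.50 and 8.69 at 12.5 ng/hr, and 7.30, 9.05 and 8.17 at 25 ng/hr, with no separation of 25 from 12.5 ng/hr. Control replicate 1 was its highest array. The list's summed level was 1486 to 7610 in controls, 1588 to 1806 at 12.5 ng/hr and 1289 to 1818 at 25 ng/hr, and Cnn1 was on no array above background.

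Other cell types did not all share the order of the matrix genes. Portal fibroblast and mesothelial markers summed to 313 to 434 in controls, 453 to 500 at 12.5 ng/hr and 314 to 356 at 25 ng/hr, with 0 of 7 genes called by limma, 2 of them lower at 25 than at 12.5 ng/hr at an unadjusted p under 0.05 (6.96% of all probes), and Gas1 on no array. The 3 bile duct genes measured summed to 616 to 1179, 1594 to 1801 and 582 to 778 at 0, 12.5 and 25 ng/hr, most of it Spp1, osteopontin, whose 25 minus 12.5 ng/hr difference was -1.47 ± 0.26 (adjusted p = 0.0637). Cftr was on no array. Endothelial markers summed to 4845 to 5532, 5324 to 5793 and 5830 to 7082 at the 3 doses in turn, with 0 of 10 called by limma and 2 in each direction at an unadjusted p under 0.05 between 25 and 12.5 ng/hr.

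Kupffer cell and macrophage markers had a higher summed level on every leptin array than on any control array. They summed to 2663 to 2921 in controls, 4016 to 4187 at 12.5 ng/hr and 4120 to 4663 at 25 ng/hr, and Cd5l was on no array. At 25 relative to 0 ng/hr Adgre1, Clec4f and Vsig4 rose, by 0.95, 0.83 and 0.58 on the log2 scale (adjusted p of 0.0302, 0.0321 and 0.0378), 3 of 9 genes, against 0.603% of all probes called higher. Without control replicate 1 their differences were 0.90, 0.94 and 0.59 (adjusted p of 0.078, 0.0375 and 0.0922), so Clec4f alone was called. Over the 18 alternatives Adgre1, Clec4f and Vsig4 lost their calls under 7, 6 and 9. The fat cell genes Adipoq and Lep were highest on control replicate 1, and that list summed to 9400 to 14535, 14038 to 16048 and 16146 to 20942 at 0, 12.5 and 25 ng/hr, mostly Car3, with 0 of 5 called by limma and 1 lower between 25 and 12.5 ng/hr at an unadjusted p under 0.05. Plin1 and Retn were on no array. The 2 lymphocyte genes summed to 65 to 66 in controls, 71 to 74 at 12.5 ng/hr and 73 to 84 at 25 ng/hr. Cd3g, Cd79a and Ms4a1 were on no array. Hepatocyte genes summed to 141541 to 151875, with 0 of 7 called by limma and 1 higher between 25 and 12.5 ng/hr at an unadjusted p under 0.05. Over all probes 6.96% were lower and 5.84% higher at that p in this comparison. How far any of these cell types accounts for the matrix differences was not tested.

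**Figure D4:**
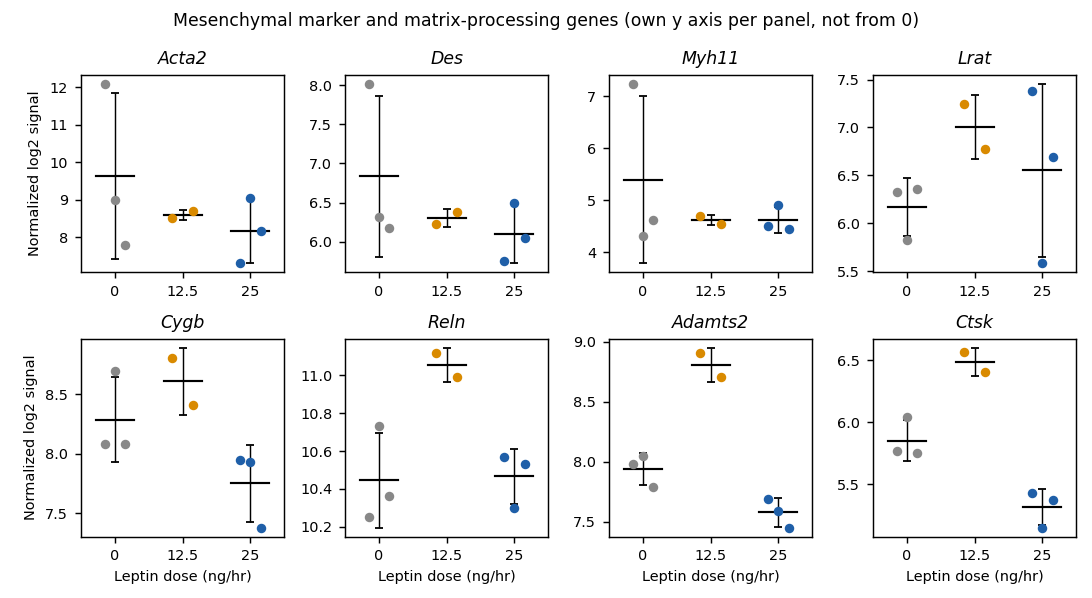
Normalized log2 signal (y axis, own scale per panel, not from 0) against leptin dose in ng/hr (x axis) for Acta2, Des, Myh11, Lrat, Cygb, Reln, Adamts2 and Ctsk, with points for arrays and bars for group means with SD (n = 3, 2 and 3). Control replicate 1 is the high point of Acta2, Des and Myh11, while Reln, Adamts2 and Ctsk are highest at 12.5 ng/hr.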

How the data were processed

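Mouse liver RNA was measured on the 8 arrays of 1 Illumina BeadChip, grouped by the leptin dose of the labels. Trizol-extracted RNA was copied, per the labels' protocols, into biotin-labelled cRNA. Scanner software and build are not stated in the labels or headers. The authors deposited an unscaled intensity and a detection p-value for each probe and array, and the same intensities scaled by 1 factor per array (0.927 to 1.081) to a mean of 493, still linear, neither centred nor turned into ratios. Column medians of these scaled intensities were 72.0, 70.3, 74.2, 72.8, 68.4, 71.4, 73.5 and 72.3 for replicates 1 to 8.

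The function neqc of limma 3.58.1 (R 4.3.3) corrected the unscaled intensities for background, inferred from the detection p-values, added an offset of 16, quantile-normalized the arrays and took log2. Probes needed a detection p under 0.05 on at least 2 arrays. Every such probe was a feature, since the members are probes. One limma fit (lmFit, eBayes) with 3 group means gave all differences, SE and 95% intervals, with Benjamini-Hochberg adjustment over 13760 probes and a threshold of 0.05. The code was tested on simulated data. A fold is a lower bound where the probe was below background throughout the dimmer group: the brighter group's mean against, per dim array, the higher of the lowest signal above background and the probe's own. The bound holds only for the background correction used here and leaves out the spread between arrays. Members and lists were chosen with earlier results of these data known. Every member probe is accounted for. Values on all arrays are given for called members, for a set of main collagens and matrix genes, and for list genes that passed or had the smallest p, of which a few are not reported here. List genes were named through current symbols (24723 of 25697 probes matched). Symbols and promoters are from RefSeq, GRCm38.p6. The number of arrays limits the precision. Alternatives were 10 other ways of processing and fits without each of the arrays. Plots were made in Python 3.11.15 with matplotlib 3.10.9.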

Additional observations from a re-analysis of the deposited data

How the results depend on the processing

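The counts, the medians and the 19 called probe results were recomputed under every alternative, and none of the medians or called results turned its sign. A probe result has no value under a filter that leaves its probe out. Not every alternative that moved a median or a count over all probes is listed. The sizes of results that did not pass were compared only without control replicate 1. The member count at 25 minus 12.5 ng/hr (10) became 18 with a trended robust prior and 6 with array weights. It became 14 without background correction, on the authors' scaled intensities and with an offset of 50, and 13 with only the groups compared. It was 9 with median scaling and for probes detected on all 8 arrays. For probes detected on 1 or more arrays, and with 1 probe per gene, it was 8. When 1 control or 25 ng/hr array was left out it was 1 to 11. At 25 minus 0 ng/hr the member count (2) became 1 with 1 probe per gene, 6 with the trended prior and 1 with only the groups compared. It became 3 with median scaling, without background correction, on the authors' scaled intensities and with an offset of 50. It was also 3 for probes detected on all 8 arrays and with array weights. When 1 control or 25 ng/hr array was left out it was 0 to 2. At 12.5 minus 0 ng/hr (0) it became 1 on the authors' scaled intensities. The member median at 25 minus 12.5 ng/hr became -0.57 with median scaling and -0.75 for probes detected on all 8 arrays (-0.57 to -0.39 leaving out 1 array). At 25 minus 0 ng/hr it became -0.19 without background correction and -0.22 on the authors' intensities. At 12.5 minus 0 ng/hr it became 0.16 without background correction, 0.20 on the authors' intensities, 0.19 with an offset of 50 and 0.33 for probes detected on all 8 arrays (0.20 to 0.27 leaving out 1 array). Counts over all probes at 25 minus 0 ng/hr (118) became 266, 257, 243, 330, 180 and 41 without background correction, on the authors' intensities, with offset 50, the trended prior, array weights and only the groups compared (0 to 194 leaving out 1 array). At 12.5 minus 0 ng/hr (0) they became 7, 18 and 9 under the first 3 of these, 49 with the trended prior and 3 with only the groups compared (0 to 2 leaving out 1 array). At 25 minus 12.5 ng/hr (56) they became 98, 134, 101 and 141 under the first 4 (0 to 70 leaving out 1 array). The cause was not tested beyond what each alternative's construction shows. No paired analysis was possible because the groups share no replicate numbers. Groups of 2 and 3 arrays limit every call, and probes near the background such as those of Col1a1, Col1a2 and Col3a1 are bounded by the background.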
